A study of Danio rerio with 6 samples.

Results

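The 10 apolipoprotein genes described here are *apobb.1*, *apoa1a*, *apoa1b*, *apoa2*, *apoa4a*, *apoa4b.1*, *apoc1*, *apoc2*, *apoea* and *apoeb*. They were chosen by symbol from a table of 21769 zebrafish genes, and each symbol matched 1 gene. Their transcripts were read by RNA-seq in 3 libraries from *dhx38* mutants (written dhx38-- or dhx38-/- in the labels) and 3 from wild-type siblings. All embryos were of strain AB and were taken 36 hours after fertilization. *dhx38* encodes a DEAH-box helicase of the pre-mRNA splicing machinery, and the labels do not state the mutation. The tissue is labelled tail in one place and trunk in another, and the labels name neither separate clutches nor the number of embryos behind a library. The p-values therefore speak of the spread among these 6 libraries, which may be technical.

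Apolipoproteins coat the particles that carry lipid between tissues. In the early zebrafish embryo the yolk syncytial layer packs yolk lipid onto apolipoprotein B and releases it into the circulation, and the liver and intestine take this over later. ApoB is the structural protein of these particles, ApoA-I and ApoA-II are the main proteins of high-density lipoprotein, the small ApoC proteins tune lipase activity, and ApoE is a ligand of the LDL receptor family.

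The deposited values are normalized CPM, which are not corrected for gene length, so levels are compared between libraries and not between genes. The value of 1 read, taken from the steps between low values, puts the depth at about 32100000, 37700000 and 19500000 reads in mutant replicates 1, 2 and 3, against 34700000, 36500000 and 20000000 reads in sibling replicates 1, 2 and 3. The replicate 3 libraries are thus the shallower, and the labels point to a separate gene ID key for replicate 3 of both groups. The smallest value of any of the 10 genes equals 483 reads. *dhx38* itself stood at 57.2, 90.4 and 53.1 normalized CPM in mutants and at 33.8, 33.8 and 27.3 in siblings, which does not check the genotype. Eye, lens and forebrain markers were read in tissue labelled tail or trunk, with the 17 genes of that list summing to 486 to 1185 normalized CPM in mutants and 975 to 1392 in siblings.

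The comparison asked how these transcripts differed between mutants and siblings. Of the 10 genes 9 had a positive log2 fold change, against 49.2% of all genes, and *apoa4a* a negative one. None of the 10 passed an adjusted p of 0.05 (limma on log2(value + 1), Benjamini-Hochberg over all 21769 genes). The test called 1.7% of all genes, with 1.41% of all genes higher in mutants and 0.285% lower. At an unadjusted p under 0.05 the count was 3 of the 10, namely *apobb.1*, *apoa1a* and *apoa2*, against 10.2% of all genes higher in mutants. The share of all genes lower at that p was 10.7%. The same 3 genes had no overlap between groups, which held with mutants higher in 13.3% of all genes. Library numbers were taken to pair mutants with siblings, since deviations correlated most between same-number libraries. Of the 10 genes 8 were higher in the mutant of each of the 3 same-number pairs, against 25.6% of all genes. Among genes with a 6-library mean of at least 100 normalized CPM that share was 30.3%. The 8 include *apoea*, which was higher by only 0.010 and 0.040 on the log2 scale in pairs 1 and 2. With the replicate number as a block *apobb.1* and *apoa1b* rose, 2 of the 10, against 6.85% of all genes higher in mutants. A variance trend added to the block, an alternative chosen after seeing the data, raised this to 6 of the 10 (*apoa1a*, *apoa2*, *apoc1* and *apoc2* besides these), where 8.85% of all genes were called higher and 8.6% lower. The median log2 fold change of the 10 was 0.56, and that of all genes -0.0067.

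**Figure D1:**
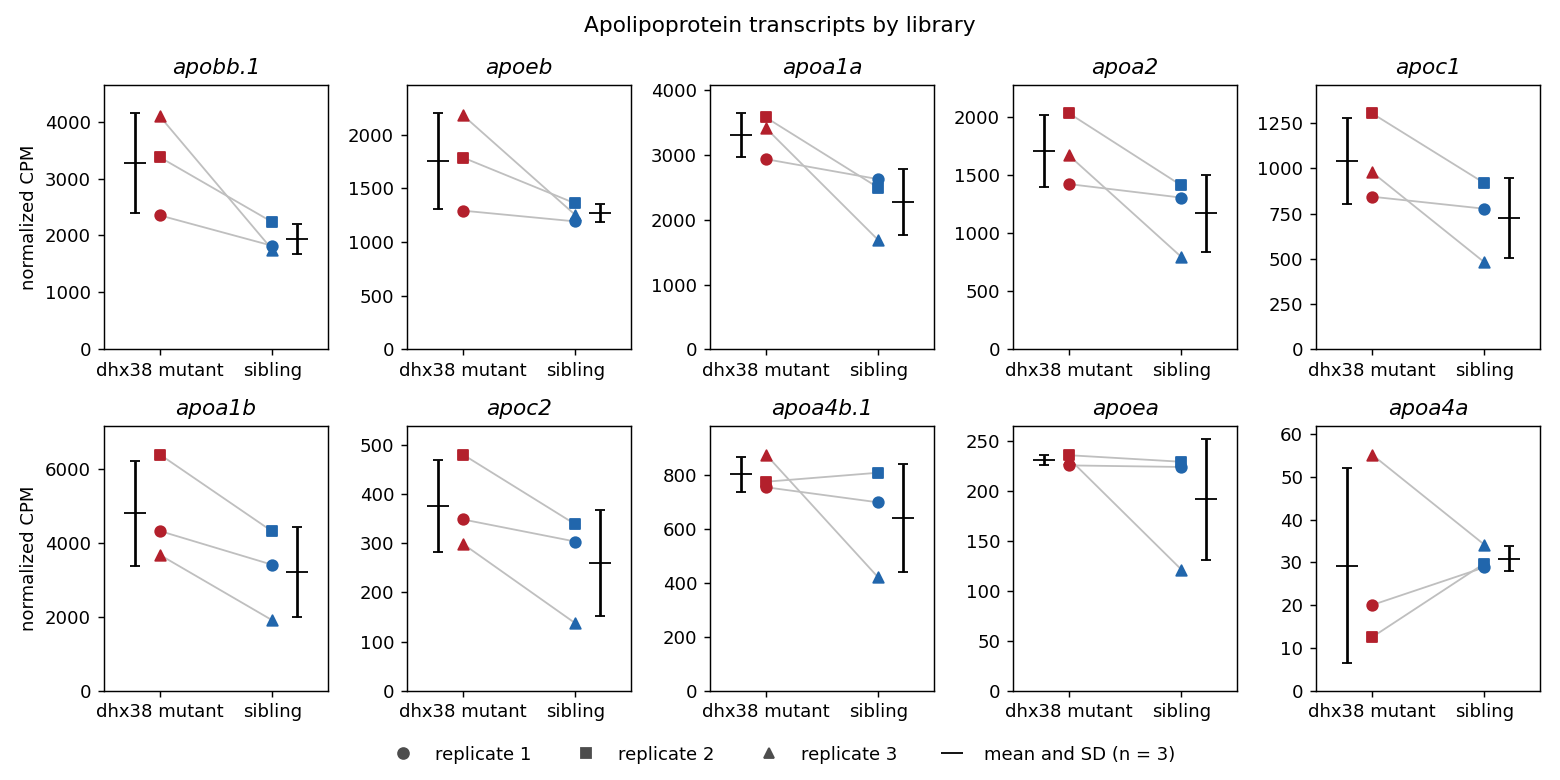
Normalized CPM of each apolipoprotein gene in the 3 mutant libraries (left of each panel) and the 3 sibling libraries (right), with grey lines joining same-number libraries and bars for mean and SD; every axis starts at 0. The groups do not overlap for *apobb.1*, *apoa1a* and *apoa2*, and sibling replicate 3 is the lowest of the 6 libraries in 8 of 10 panels.

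*apobb.1* (ENSDARG00000022767, chromosome 20), which encodes the main ApoB of zebrafish yolk lipoproteins, had 2353, 3374 and 4091 normalized CPM in mutants, against 1819, 2235 and 1753 in siblings. The lowest mutant library stood above the highest sibling library. The means were 3272 ± 873 in mutants and 1936 ± 261 in siblings (SD, n = 3 each). The log2 fold change was 0.73 (95% interval 0.23 to 1.23), which did not pass (limma adjusted p = 0.122) and passed with the replicate block (limma adjusted p = 0.0290). The log2 difference was smallest in pair 1, at 0.37 against 0.59 and 1.22 in pairs 2 and 3. Leaving out pair 1 could therefore only raise the blocked estimate, and leaving out pair 3 only lower it. The blocked call held without pair 1 (limma adjusted p = 0.00496) and was lost without pair 2 (0.108), without pair 3 (0.0971) and with a pseudocount of 0.1 (0.1201). With that pseudocount the log2 fold change of *apobb.1* stayed at 0.73. Without the block, leaving out mutant replicate 1, the mutant library nearest to the siblings, gave a log2 fold change of 0.95 that passed (limma adjusted p = 0.0283), where 7.95% of all genes were called, 3.98% higher and 3.97% lower.

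The genes of high-density lipoprotein are *apoa1a* and *apoa1b*, 2 copies of the ApoA-I gene, and *apoa2*. *apoa1a* (ENSDARG00000012076, chromosome 5) had 2931, 3573 and 3409 normalized CPM in mutants, against 2623, 2492 and 1684 in siblings. All mutant libraries lay above all sibling libraries, and sibling replicate 3 lay well below the other siblings. *apoa1a* had a log2 fold change of 0.57 (95% interval 0.11 to 1.02) and did not pass (limma adjusted p = 0.162, and 0.0600 with the block). *apoa2* (ENSDARG00000015866, chromosome 16) had 1422, 2031 and 1668 normalized CPM in mutants, against 1305, 1411 and 795 in siblings. Here the groups were separated by a narrow gap between mutant replicate 1 and sibling replicate 2, with a log2 fold change of 0.57 (95% interval 0.014 to 1.13) that did not pass (limma adjusted p = 0.228, and 0.0667 with the block).

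*apoa1b* (ENSDARG00000101324, chromosome 15) had 4322, 6393 and 3675 normalized CPM in mutants, against 3408, 4311 and 1906 in siblings. The groups overlapped, but in both groups replicate 2 was highest and replicate 3 lowest, and each mutant was above the sibling of its number, by 1.27, 1.48 and 1.93 times in pairs 1, 2 and 3. Its log2 fold change was 0.62 with a 95% interval of -0.12 to 1.36 without the block and of 0.28 to 0.96 with it. It did not pass without the block (limma adjusted p = 0.313) and passed with it (limma adjusted p = 0.0308). As pair 1 had the smallest difference and pair 3 the largest, leaving out pair 1 could only raise the blocked estimate and leaving out pair 3 only lower it. The blocked call held without pair 1 (limma adjusted p = 0.00951) and was lost without pair 2 (0.163), without pair 3 (0.110) and with a pseudocount of 0.1 (0.117). With that pseudocount the log2 fold change of *apoa1b* stayed at 0.62.

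Of the ApoA-IV genes, whose product in mammals rides on particles that leave the intestine, neither differed beyond the spread between libraries. *apoa4b.1* (ENSDARG00000040298, chromosome 16) had 754, 775 and 875 normalized CPM in mutants, against 698, 808 and 420 in siblings. It differed little in pairs 1 and 2, with log2 differences of 0.11 and -0.06, and by 1.06 in pair 3, where the sibling was low. The log2 fold change was 0.37 (95% interval -0.18 to 0.92, limma adjusted p = 0.421). Another ApoA-IV copy, *apoa4b.2*, is also on chromosome 16. How reads shared by such copies were counted is not given in the sources used here.

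*apoa4a* (ENSDARG00000101160, chromosome 19) had 20.02, 12.5 and 55.2 normalized CPM in mutants, against 28.8, 29.7 and 34.2 in siblings. The siblings lay close together while the mutants spanned them on both sides: mutant replicates 1 and 2 were below every sibling and mutant replicate 3 above. The means were 29.3 ± 22.8 in mutants and 30.9 ± 2.85 in siblings (SD, n = 3 each), and the log2 fold change was -0.34 (95% interval -1.37 to 0.69, limma adjusted p = 0.716). It was 0.11 without mutant replicate 2 and -0.92 without mutant replicate 3, neither past the threshold. With the block and without pair 3 *apoa4a* fell by 0.85 on the log2 scale (limma adjusted p = 0.0440), where 6.32% of all genes were called and 2.37% called lower.

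Of the ApoC genes, *apoc2* encodes the cofactor that activates lipoprotein lipase, and *apoc1* a small protein that in mammals slows particle uptake and lipid exchange. *apoc2* (ENSDARG00000092155, chromosome 16) had 349, 481 and 299 normalized CPM in mutants, against 304, 339 and 137 in siblings. *apoc1* (ENSDARG00000092170, chromosome 16) had 844, 1305 and 980 normalized CPM in mutants, against 777, 919 and 482 in siblings. The groups overlapped for both genes, and in each of the 3 pairs the mutant was the higher library. The log2 fold change of *apoc2* was 0.61 (95% interval -0.18 to 1.39) and did not pass (limma adjusted p = 0.354, and 0.0551 with the block). That of *apoc1* was 0.55 (95% interval -0.06 to 1.16) and did not pass either (limma adjusted p = 0.282, and 0.0702 with the block).

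Of the ApoE genes, *apoeb* (ENSDARG00000040295, chromosome 16), which in zebrafish is also known from the fin fold, had 1293, 1788 and 2182 normalized CPM in mutants, against 1193, 1360 and 1253 in siblings. Mutant replicates 2 and 3 were above every sibling and mutant replicate 1 lay among them. The log2 fold change of *apoeb* was 0.44 (95% interval -0.03 to 0.90, limma adjusted p = 0.262, and 0.0950 with the block).

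*apoea* (ENSDARG00000102004, chromosome 19) had 225, 235 and 232 normalized CPM in mutants, against 224, 229 and 121 in siblings. Of these 6 libraries 5 lay between 224 and 235, and sibling replicate 3 stood alone below them. Its log2 fold change of 0.33 (95% interval -0.23 to 0.89, limma adjusted p = 0.485) was 0.029 without sibling replicate 3 (limma adjusted p = 0.939). A p that misses the threshold does not show that *apoea* was equal in the groups.

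**Figure D2:**
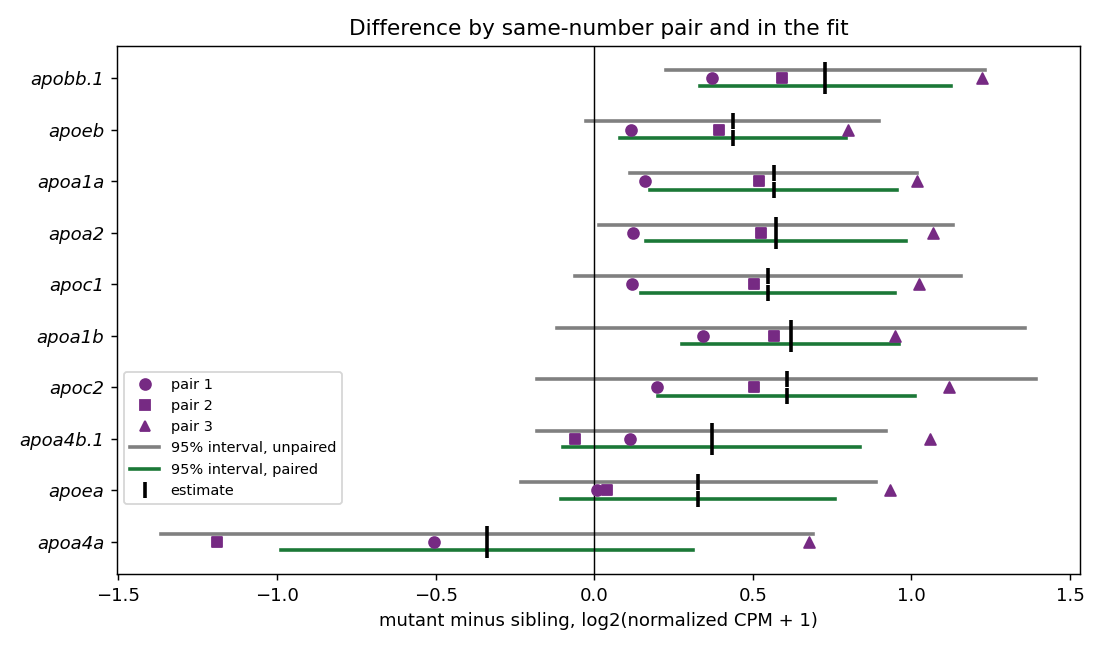
Mutant minus sibling difference in log2(normalized CPM + 1) for each gene, by same-number pair (symbols) and as estimated with 95% intervals without the replicate block (grey) and with it (green). Pair 3 gives the largest difference for all 10 genes, and all 3 pairs lie above 0 for 8 of them.

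The size of the difference varied by pair. The median over the 10 genes was 0.12 in pair 1, 0.50 in pair 2 and 1.02 in pair 3 on the log2 scale, while the median over all genes was within 0.01 of 0 in each pair. Pair 3 gave the largest difference for all 10 genes, which was so for 37.4% of all genes. Pair 1 gave the smallest for 8 of the 10, against 35.6% of all genes. Calls gained without pair 1 or lost without pair 3 therefore follow in part from which pair was left out. With a pair left out few libraries remain, and limma then takes a gene's spread in good part from all genes. Mutant replicate 1 was the lowest mutant for 7 of the 10, against 35.1% of all genes, and sibling replicate 3 was the lowest of the 6 libraries for 8 of the 10, against 17.6% of all genes. With the block, 7 of the 10, all but *apoa4a*, *apoa4b.1* and *apoea*, rose when pair 1 was left out (9.07% of all genes called higher) and 0 rose when pair 3 was left out, where 3.95% of all genes were called higher. In the 4 libraries of replicates 1 and 2 the log2 fold changes were 0.48 for *apobb.1*, 0.46 for *apoa1b*, 0.34 for *apoa1a* and 0.025 for both *apoa4b.1* and *apoea*. Without sibling replicate 3 alone the log2 fold change was 0.37 for *apoa1a*, 0.28 for *apoa1b*, 0.32 for *apoa2*, 0.28 for *apoc1*, 0.20 for *apoc2* and 0.090 for *apoa4b.1*, each less than with all libraries by over 1.5 times. It was 0.66 for *apobb.1* and 0.43 for *apoeb*, and none of the 10 passed. *apoa1b* was also lower without mutant replicate 2 (0.39) and *apoeb* without mutant replicate 3 (0.26). Leaving out a single library breaks its pair, so these values also carry differences between replicate numbers. With the block and a whole pair left out, *apoa1b* had 0.64 without pair 2 and 0.46 without pair 3. Without pair 3 *apoc2* had 0.35 and *apoeb* 0.26. Depth and any other property of replicate 3 cannot be told apart from its number.

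Together the 10 genes took 1.55%, 2.05% and 1.64% of the summed signal in mutants, against 1.24%, 1.43% and 0.825% in siblings. Every mutant library was above every sibling library. Leaving out *apoa1b* gave 1.09%, 1.39% and 1.29% in mutants and 0.897%, 0.996% and 0.642% in siblings. These sums are a description with no test, since the genes were chosen with results of these data known. In whole tissue, more cells of a type and more RNA per cell cannot be told apart.

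The genes were grouped by their pattern over the libraries after the values were seen, with no set cutoff and no test. *apobb.1* and *apoeb* differed mostly through mutant replicates 2 and 3, and their replicate 3 was high in mutants, at 1.43 and 1.42 times the mean of mutant replicates 1 and 2. Sibling replicate 3 of these genes was close to the other siblings, at 0.865 times their mean for *apobb.1* and 0.981 times for *apoeb*. *apoa1b* and *apoc2* had a low replicate 3 in both groups, at 0.686 and 0.721 times the mean of the other mutants and 0.494 and 0.427 times the mean of the other siblings. *apoa1a*, *apoa2*, *apoc1*, *apoa4b.1* and *apoea* had a replicate 3 close to the other libraries in mutants, at 1.05, 0.967, 0.912, 1.15 and 1.01 times their mean. In siblings replicate 3 of these 5 genes was low, at 0.658, 0.586, 0.568, 0.557 and 0.535 times the mean of the other siblings. *apoa4a* was placed in no group, with replicate 3 at 3.40 times the mean of the other mutants and 1.17 times that of the other siblings.

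**Figure D3:**
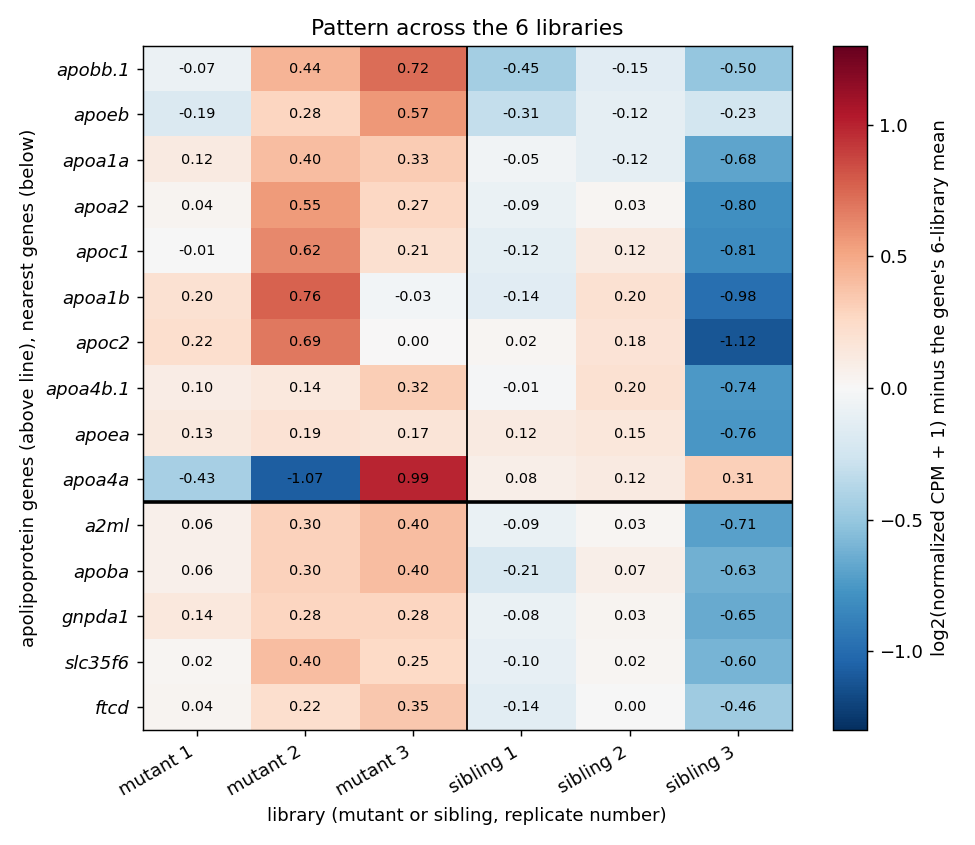
Log2(normalized CPM + 1) of each library minus the gene's own 6-library mean, for the 10 apolipoprotein genes and, below the line, the 5 named genes nearest to their mean pattern. Sibling replicate 3 is the lowest library in 8 of the 10 apolipoprotein rows, and *apoa4a* is lowest in mutant replicate 2.

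Likeness between genes was measured as the mean absolute difference of these log2 deviations over the 6 libraries, where 0 is the same pattern. The closest of the 45 pairs were *apoa2* and *apoc1* (0.053), *apoa4b.1* and *apoea* (0.070) and *apoa1b* and *apoc2* (0.075). Among duplicated genes the distance was 0.25 for *apoa1a* and *apoa1b*, 0.34 for *apoea* and *apoeb* and 0.61 for *apoa4a* and *apoa4b.1*, beside a median of 0.25 over all 45 pairs. Of the 10 genes 5 lie on chromosome 16, where the RefSeq order on GRCz12tu runs *apoeb*, *apoc1*, *apoc4*, *apoa2*, *apoc2* without another protein-coding gene between them. The 10 pairs of chromosome 16 genes had a median of 0.21, and the 26 other pairs without *apoa4a* had 0.22. *apoa2* and *apoc1* were the most alike of all, while *apoeb* and *apoc1*, direct neighbours, differed by 0.31. *apoa4a* and *apoea* are neighbours on chromosome 19 and differed by 0.63.

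Among genes with a 6-library mean of at least 10 normalized CPM, 5 named genes were the nearest to the mean pattern of the 10. They were *a2ml* (0.037), *apoba* (0.040), *gnpda1* (0.046), *slc35f6* (0.049) and *ftcd* (0.065). Loci with no symbol or only a clone or placeholder symbol were passed over. The mean is not the pattern of each gene, since the 10 lay farther from it, at 0.084 (*apoa1a*) to 0.60 (*apoa4a*). Other named genes nearer to it numbered 13 for *apoa1a*, 3411 for *apoa1b*, 4063 for *apoc2* and 8926 for *apoa4a*. *a2ml* encodes a plasma protease inhibitor, *apoba* another ApoB and *ftcd* an enzyme of histidine and folate metabolism. *a2ml* had 146, 173 and 185 normalized CPM in mutants, against 132, 143 and 85.1 in siblings, and did not pass (log2 fold change 0.51, limma adjusted p = 0.224). The same 5 genes came first with a pseudocount of 0.1, which alters log2 deviations little at these levels.

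The other genes of the pathway were taken from 6 lists, and 8 lists held markers of cell types. Of the 249 distinct genes measured in these 14 lists 0 passed with limma, which was the only tool used, against 1.7% of all genes. With the block 48 were called, 27 higher and 21 lower, where 6.85% of all genes were called higher and 6.87% lower. Only 1 of the 249 was called with the block at a pseudocount of 0.1, and 2 with the block without pair 2. Counts at an unadjusted p under 0.05 stand beside 10.2% of all genes higher and 10.7% lower. Genes named below for passing an unadjusted p of 0.05 or the blocked fit were chosen after their values were seen.

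Of 11 other apolipoprotein genes measured 1 was higher and 3 were lower at an unadjusted p under 0.05, where all genes had 10.2% and 10.7%, with a median log2 fold change of 0.034. *apoba*, the higher one, had 439, 516 and 555 normalized CPM in mutants, against 363, 442 and 272 in siblings (log2 fold change 0.51, limma adjusted p = 0.202). *apoa4b.2*, another ApoA-IV copy, has 2 gene IDs. At its more abundant ID it had 143, 175 and 314 normalized CPM in mutants, against 155, 219 and 218 in siblings. Its groups overlapped. *apobb.2* was at 71.0, 121 and 121 normalized CPM in mutants, against 69.5, 89.8 and 66.8 in siblings. The 3 lower ones were those that fell with the block, *apooa* (limma adjusted p = 0.0348), *apoob* (0.0438) and *apoda.1* (0.0316). That is 3 of 11, beside 6.87% of all genes called lower. *apooa* and *apoob* carry the apolipoprotein name but encode proteins of the mitochondrial inner membrane. *apooa* had 10.9, 9.75 and 11.0 normalized CPM in mutants, against 14.6, 17.3 and 15.6 in siblings, so the groups did not overlap.

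Of 31 genes of lipoprotein assembly and fat loading 6 were higher and 1, *tm6sf2*, lower at an unadjusted p under 0.05, and 27 had a positive log2 fold change (median 0.23). *mttp*, the transfer protein that loads lipid onto ApoB, had 26.0, 26.3 and 39.6 normalized CPM in mutants, against 21.8, 26.7 and 22.4 in siblings, and the groups overlapped. *fabp1b.1*, a fatty acid binding protein gene, had 226, 357 and 297 normalized CPM in mutants, against 217, 254 and 165 in siblings. *p4hb*, the partner subunit of the transfer protein, had 160, 191 and 205 in mutants, against 148, 158 and 151 in siblings. Neither passed (limma adjusted p = 0.281 and 0.325). With the block *acsl4a*, a fatty acid activating enzyme gene, and *creb3l3b*, a transcription factor gene of the secretory pathway, rose (limma adjusted p = 0.0277 and 0.0185). That is 2 of 31, beside 6.85% of all genes called higher.

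The 15 measured genes of lipases and lipid transfer in plasma had a median log2 fold change of 0.016, with 8 positive and 7 negative. *lpl*, the lipase that ApoC-II activates, had 48.7, 48.3 and 64.5 normalized CPM in mutants, against 53.3, 49.1 and 63.9 in siblings, a log2 fold change of -0.046. *angptl4*, an inhibitor of that lipase, had 64.0, 59.4 and 70.1 in mutants, against 66.3, 52.9 and 73.5 in siblings. *lmf2b*, of the lipase maturation factor family, had 79.7, 66.4 and 72.7 in mutants, against 95.7, 98.9 and 106 in siblings, and did not pass (log2 fold change -0.45, limma adjusted p = 0.123). With the block *cetp*, which exchanges lipids between particles, and *lcat*, which esterifies cholesterol on high-density lipoprotein, rose (limma adjusted p = 0.0483 and 0.0306). These are 2 of 15, beside 6.85% of all genes called higher.

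Of 28 lipoprotein receptor and sterol exporter genes 2 were higher (*lrp5* and *cubn*) and 0 lower at an unadjusted p under 0.05. All genes had 10.2% and 10.7%, and the list had a median log2 fold change of 0.11. *abca1b*, of the family that hands cholesterol to ApoA-I, had 217, 210 and 190 normalized CPM in mutants, against 164, 187 and 110 in siblings. Its groups did not overlap, and it did not pass (log2 fold change 0.45, limma adjusted p = 0.259, and 0.0804 with the block). *npc2*, a carrier of cholesterol in lysosomes, had 148, 209 and 241 in mutants, against 151, 188 and 123 in siblings. With the block *cubn* and *lrp6* rose (limma adjusted p = 0.0363 and 0.0496), 2 of 28, beside 6.85% of all genes.

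Of 36 regulators of apolipoprotein transcription 6 were higher and 1, *insig2*, lower at an unadjusted p under 0.05, and 27 had a positive log2 fold change (median 0.19). *hnf4a*, a nuclear receptor gene of liver, gut and yolk syncytial layer, had 8.35, 11.2 and 11.9 normalized CPM in mutants, against 8.55, 7.43 and 5.19 in siblings (log2 fold change 0.52, limma adjusted p = 0.203). *nr1h3*, the oxysterol receptor gene, had 31.3, 35.2 and 35.6 in mutants, against 25.5, 24.9 and 22.9 in siblings, with no overlap and no call (limma adjusted p = 0.114, and 0.0523 with the block). *srebf2* (209, 269 and 120 in mutants, against 164, 146 and 118 in siblings) and *nr2f1a* (168, 144 and 158 in mutants, against 180, 164 and 164 in siblings) did not pass. *rxrga*, a retinoid X receptor gene, rose with the block (limma adjusted p = 0.0191), 1 of 36, beside 6.85% of all genes.

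Of 23 cholesterol synthesis genes 1 (*fdps*) was higher and 7 were lower at an unadjusted p under 0.05 (10.2% and 10.7% of all genes), and 16 had a negative log2 fold change (median -0.30). *hmgcrb* had 57.5, 71.5 and 58.5 normalized CPM in mutants, against 53.1, 51.1 and 48.3 in siblings, and *fdps* had 57.6, 56.4 and 63.7 in mutants, against 48.3, 46.3 and 46.6. Neither passed (limma adjusted p = 0.297 and 0.208). With the block *hmgcra*, one of the genes of the rate-limiting reductase, fell (2.13, 1.55 and 3.22 in mutants, against 3.86, 4.43 and 8.51 in siblings, limma adjusted p = 0.00694). *dhcr7*, *stard4* and *sqleb* fell with the block as well (limma adjusted p = 0.0207, 0.0152 and 0.0338). These are 4 of 23, beside 6.87% of all genes called lower. *sqleb* was near the floor, at 0.15, 0.13 and 0.05 in mutants, against 0.58, 0.78 and 0.42 in siblings. The value of 1 read in mutant replicate 3 is 0.055.

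**Figure D4:**
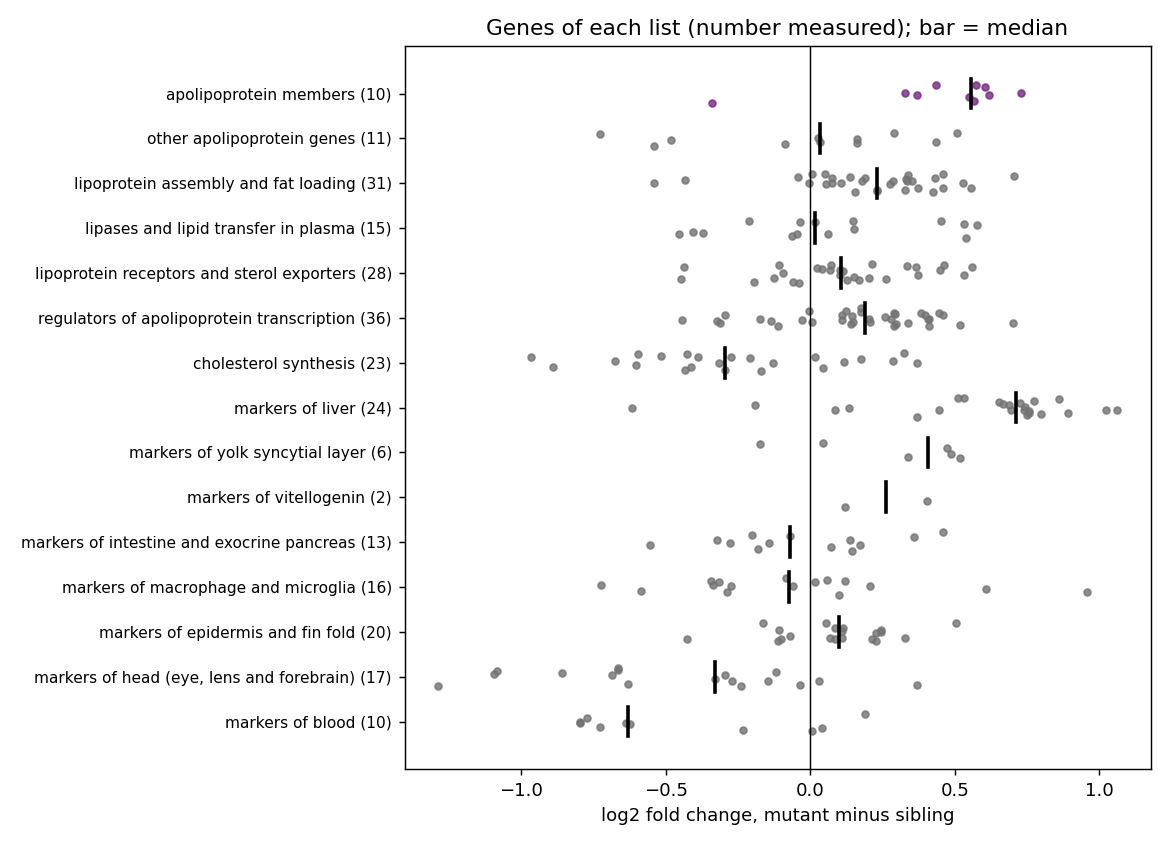
Log2 fold change, mutant minus sibling, of each measured gene (dots) in the 10 apolipoprotein genes and the 14 lists, with the number measured in brackets and the median as a bar. The liver markers have the highest median (0.71), the apolipoprotein genes come next (0.56) and the blood markers have the lowest (-0.63).

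Of 30 liver marker symbols 24 were measured, while *fabp10a*, *ttr*, *hpx*, *gc*, *ahsg1* and *ahsg2* were not. Of the 24 liver markers 22 had a positive log2 fold change, with a median of 0.71. Of the 24, 11 were higher and 1 lower at an unadjusted p under 0.05 (10.2% and 10.7% of all genes). With the block 17 rose and 1 (*gpc3*) fell (6.85% and 6.87% of all genes). The transferrin gene *tfa* had 850, 1297 and 1258 normalized CPM in mutants, against 707, 840 and 488 in siblings, and *fetub*, for a secreted plasma protein, had 656, 929 and 881 in mutants, against 506, 528 and 442 in siblings. Neither passed without the block (limma adjusted p = 0.143 and 0.0780) and both rose with it (0.0389 and 0.020). The list summed to 3567 to 5519 normalized CPM in mutants and 2007 to 3409 in siblings, with no overlap, and no measured marker was at 0 in a library. Its medians in pairs 1, 2 and 3 were 0.25, 0.70 and 1.11. A rising order over the pairs was also seen for lipoprotein assembly (0.091, 0.12 and 0.43), the yolk syncytial layer (0.11, 0.21 and 0.66), vitellogenin (-0.0093, 0.33 and 0.47) and epidermis (-0.048, 0.14 and 0.29). The remaining lists did not show it, and the share of all genes with this order was not counted. The assembly and yolk lists share *mttp*, and vitellogenin has only 2 measured genes. The liver progenitor genes *prox1a* and *hhex* had log2 fold changes of -0.19 and 0.37 (limma adjusted p = 0.561 and 0.256). The part of liver content in the apolipoprotein values was not tested.

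Of 6 measured markers of the yolk syncytial layer, several of which are shared with gut and liver, 5 had a positive log2 fold change (median 0.41), and 2 (*gata5* and *hnf4a*) were higher at an unadjusted p under 0.05. *slc40a1*, the iron exporter gene, had 68.2, 69.7 and 71.1 normalized CPM in mutants, against 69.8, 73.2 and 60.4 in siblings. *gata5* and *gata6* rose with the block (limma adjusted p = 0.0498 and 0.0474), 2 of 6, beside 6.85% of all genes. The list summed to 148 to 171 normalized CPM in mutants and 118 to 145 in siblings. Of 8 vitellogenin symbols 2 were measured, *vtg7* at 2.92, 10.6 and 4.59 in mutants, against 4.06, 8.46 and 3.11 in siblings, and *vtg1* at 1.23, 1.24 and 1.20 in mutants, against 0.75, 0.73 and 0.57 in siblings. Their part in the apolipoprotein values was not tested.

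Intestine and exocrine pancreas markers had a median log2 fold change of -0.071 over 13 genes. Of the 13, 1 (*ela2*) fell with the block, beside 6.87% of all genes called lower. *fabp2* had 73.7, 79.0 and 142 normalized CPM in mutants, against 85.3, 98.3 and 85.1 in siblings. Markers of macrophages and microglia, cells in which ApoE genes are also expressed, had a median of -0.072 over 16 genes. With the block 1 (*slc7a7*) rose and 2 (*mfap4* and *marco*) fell, beside 6.85% and 6.87% of all genes. The list summed to 120 to 163 normalized CPM in mutants and 82.1 to 153 in siblings. Its *ctss2.1* had 62.8, 53.9 and 100.5 in mutants, against 57.8, 33.8 and 22.6 in siblings. Its *lcp1* had 30.8, 21.2 and 21.9 in mutants, against 40.7, 29.6 and 21.4 in siblings. Epidermis and fin fold had a median of 0.10 over 20 genes, with *krt4* at 15347, 16440 and 20777 normalized CPM in mutants, against 14469, 12988 and 16817 in siblings, and *cyt1* at 9072, 7895 and 11571 in mutants, against 8931, 6407 and 9034.

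Head markers had a median of -0.33 over 17 genes. Of the 17, 7 fell with the block, beside 6.87% of all genes called lower. *crybb1* had 468, 181 and 121 normalized CPM in mutants, against 546, 502 and 362 in siblings. *cryba1b* had 296, 141 and 93.9 in mutants, against 350, 291 and 232 in siblings. Mutant replicate 1, nearest to the siblings in *apobb.1* and *apoeb*, was also nearest in these lens genes. Blood markers had a median of -0.63 over 10 genes. With the block 3 of the 10 (*hbae3* and the neutrophil genes *lyz* and *mpx*) fell, beside 6.87% of all genes called lower. The medians of the blood list in pairs 1, 2 and 3 were -0.72, -0.96 and 0.27, so pair 3 went the other way. The list summed to 2090 to 4229 normalized CPM in mutants and 3090 to 7912 in siblings. In pair 3 its sum was 3849 in the mutant and 3090 in the sibling. *hbae1.1* had 2066, 871 and 1588 in mutants, against 3946, 1993 and 1372 in siblings. *hbae3* had 802, 331 and 736 in mutants, against 1688, 763 and 756 in siblings. The part of dissected tissue in the apolipoprotein values was not tested.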

How the data were processed

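RNA of the 6 libraries came from a Trizol extraction, and 2 providers ran the HiSeq sequencing, per the labels' protocols, which do not say which library went where. The values deposited by the authors are a normalized signal per gene, which is normalized CPM per the file headers. Tools named in the submitters' processing notes are STAR, fastp, edgeR and featureCounts, with build GRCz11 and no versions or roles. The strand setting, gene filter and scaling factors are nowhere stated in the labels or headers, so overlapping genes cannot be told apart. A shorter deposited table, whose name marks its genes as significant differences, holds 956 genes, beside 21769 in the larger one. It holds 0 of the 10 genes, and the headers do not explain its selection.

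Values under 3 were multiples of 1 step per library within 0.0055 (100% in each), which gave the depth. Whole reads could not be recovered for every library at the deposited rounding, so no count test was run.

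Log2(value + 1) was fitted over all 21769 genes with limma 3.58.1 in R 4.3.3 (lmFit, eBayes defaults, no filter), mutant minus sibling, with Benjamini-Hochberg adjustment at 0.05. The fit without the block was tested on simulated data with independent noise in each library, and the blocked fit was not. Python 3.11.15 computed the rest. Replicate numbers come from the titles. Over genes with a mean of at least 1, deviations from group means correlated at r = 0.46, 0.45 and 0.59 for numbers 1, 2 and 3, all over the bound of 0.1. Mutant replicate 1 and sibling replicate 2, of unlike numbers, were also over it (r = 0.15), and the remaining unlike pairs were negative. Same-number libraries were thus the most alike and were taken as pairs, and a fit with the number as a block was the alternative. What the libraries of a number share was not tested. The members, lists and tests were chosen with earlier results of these data known. Named genes are the members, *dhx38*, the 2 most abundant genes of each list and any that passed without the block (0 did), and the 5 nearest in pattern. Genes named beyond these (among them *lpl*, *hnf4a*, *nr1h3*, *apobb.2*, *prox1a* and *hhex*) were chosen after their values were seen. Where 1 list symbol had more than 1 gene ID, the most abundant ID stands for it. The count of genes past an unadjusted p of 0.05 in the list of lipases and lipid transfer is not reported here.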

Additional observations from a re-analysis of the deposited data

How the results depend on the processing

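The fit as reported called 370 genes, 0 of the 10 apolipoprotein genes and 0 of 249 list genes. With the replicate block these counts were 2986, 2 and 48. They were 205, 0 and 0 with a pseudocount of 0.1, and 169, 0 and 1 with both. In replicates 1 and 2 of both groups they were 0, 0 and 0. Leaving out 1 library gave 31 to 1731 genes, 0 to 1 of the 10 (*apobb.1* without mutant replicate 1) and 0 to 23 list genes. A filter on low values, a variance trend and centring gave 322 to 482 genes and 0 of the 10. Fits chosen after seeing the data were the block with a variance trend (3800, 6 and 64) and the block without pair 1 (4151, 7 and 73), pair 2 (395, 0 and 2) or pair 3 (1375, 1 and 14). The log2 fold change of *apoa4a* ranged over -0.92 to 0.11 when 1 library was left out and was 0.086 with the block without pair 2. The other 9 genes kept a positive log2 fold change in every fit run. What made these calls change was not tested. The count tests (edgeR and DESeq2) and the promoter and protein descriptions that had been planned were not run. With 3 libraries a group, the unblocked 95% interval held 0 for 7 of the 10 genes. The blocked 95% interval held 0 for *apoa4a*, *apoa4b.1* and *apoea* and lay above 0 for the rest. With the block 7 of the 10 were thus higher at an unadjusted p under 0.05 (limma), against 15.3% of all genes.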
